A study of Mus musculus with 59 samples.

Results

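The clustered protocadherins are 3 neighbouring gene clusters, alpha, beta and gamma, on mouse chromosome 18. Members were taken by symbol: every row whose mouse gene symbol begins with Pcdha, Pcdhb, Pcdhga, Pcdhgb or Pcdhgc followed by a number or by the C of a C-type name. The annotation (GENCODE M21, build GRCm38) holds 58 such genes, and 57 of them are among the 18088 rows of expression values. All 57 had a value of 10 or more (reads divided by a size factor, here called normalised counts) in 4 or more libraries, as did 17891 rows in all, and these rows were tested. The members comprised 14 alpha, 21 beta and 22 gamma genes. Pcdhb1 was annotated but is not analysed here, and Pcdhgb8 is annotated as a polymorphic pseudogene.

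The clustered protocadherins are cadherin-like adhesion molecules of neurons. Each neuron expresses a small choice of them, through promoters brought to distant enhancers by CTCF and cohesin, and identical sets on facing membranes recognise each other, which neurites use to tell self from non-self. In the alpha and gamma clusters each gene has its own first exon, which encodes the extracellular and transmembrane part, spliced to constant exons shared by the whole cluster; beta genes are single-exon genes without that shared cytoplasmic end. The C-type genes, Pcdhac1, Pcdhac2, Pcdhgc3, Pcdhgc4 and Pcdhgc5, lie at the ends of the alpha and gamma clusters and are regulated less by random choice than the other, alternate, members. Pcdhac2 is known for the spacing of serotonin axons, Pcdhgc3 for dendrite arborisation and Pcdhgc4 for the survival of interneurons.

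The tissue was prefrontal cortex, taken from C57BL/6J mice on postnatal day 25, after 3 weeks of treatment (days 3 to 24) that reached the pups through the mother's milk. Mice were wild type (WT) or heterozygous (HT) for Naa15, the gene of the auxiliary subunit of the N-terminal acetyltransferase A complex, and received vehicle, fluoxetine (a serotonin reuptake inhibitor) or lithium (a mood stabiliser). The labels give no more of the allele than heterozygous, and neither doses nor litters. There were 59 libraries, 30 WT and 29 HT, in 12 groups of genotype, treatment and sex with 5 libraries each, except 4 HT vehicle males. Nothing says which pups shared a mother, so the p-values measure the spread between these libraries. The messenger RNA came from whole tissue, in which fewer cells of a type and less RNA per cell cannot be told apart.

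The targeted gene was not lower in libraries labelled HT in any treatment by the test. The Naa15 count averaged 1634 ± 139 (SD) over 10 WT vehicle mice and 1596 ± 65.3 over 9 HT vehicle mice, and its log2 difference between HT and WT over all treatments was 0.02 ± 0.02 (SE, limma adjusted p = 0.648). Under fluoxetine it was higher in HT, at 1723 ± 160 (SD, n = 10) against 1579 ± 66.4 in WT (log2 difference 0.12, adjusted p = 0.0149), and its genotype by fluoxetine interaction was 0.16 (adjusted p = 0.0461). The genotype names below therefore rest on the labels alone. Each library held 25.0 to 32.9 M recovered reads. The 20 lithium and the 5 HT fluoxetine female libraries stood apart: 6.76 to 10.3% of their reads were mitochondrial, against 4.96 to 7.83% in the other 34, and their genes of high GC content were lower, by a slope of -0.258 to -0.0554 (log2 per 10 points of GC) against -0.0649 to 0.191. Gamma members are GC-rich (51.0 to 55.4% of exon bases), alpha members less so (46.5 to 49.8%) and beta members least (39.1 to 49.0%), so the main counts of members that rest on these libraries are also given with a GC and length trend removed or without the 5 HT fluoxetine females. Neuron markers were abundant in every library, with a summed count of 159315 to 220163 over 7 genes. Sums of some other marker lists varied more between libraries. They ran from 39478 to 221714 for oligodendrocytes and from 2845 to 16989 for striatum. For immature neurons and the olfactory stream they ran from 3355 to 14167, and for choroid plexus from 65.6 to 3034. The part of this variation in the results was not tested.

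The 3 clusters lie on the plus strand of GRCm38 in the order alpha, beta, gamma: alpha from 36930184 to 37187661, beta from 37264938 to 37524479, and gamma from 37661793 to 37841873. The shared exons limit how well reads can be given to single members. At the median member, 62.3% of the alpha and 46.0% of the gamma 31-base words also occurred in another member, against 11.8% for beta. Values of single alpha and gamma genes therefore depend on how the authors' quantification divided reads from the constant exons, and beta values depend on this less.

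In WT vehicle mice the C-type genes stood at the top. Per kilobase of exon, Pcdhgc5 was highest, with 998 ± 74.8 normalised counts (SD, n = 10), followed by Pcdhgc3 at 736 ± 72.6, Pcdhgc4 at 713 ± 122 and Pcdhac2 at 505 ± 42.7. Pcdhgc3 and Pcdhgc4 lay within each other's spread, while Pcdhgc5 stood above both and Pcdhac2 below both by more than 1 SD. The other alpha C-type gene, Pcdhac1, was far lower, at 55.0 ± 8.92 per kilobase. Outside the C-types the levels were lower: Pcdha12, the highest alternate alpha gene, averaged 126 and ranged from 107 to 149 over the 10 libraries. The highest beta genes, Pcdhb17 (98.8 ± 7.26), Pcdhb20 (98.4 ± 11.6) and Pcdhb9 (90.9 ± 9.17), lay within about their spread of each other; Pcdhb20 was named after its values were seen. The median member stood at 60.8 per kilobase in the alpha, 41.8 in the beta and 97.0 in the gamma cluster. At the low end were Pcdha8 (7.79 ± 3.47) and the pseudogene Pcdhgb8 (8.68 ± 2.98), which overlapped. Of the counts assigned to each cluster, not corrected for length, Pcdhac2 took 41.2% ± 1.73 of alpha, and Pcdhgc3 and Pcdhgc4 took 16.5% ± 1.25 and 16.3% ± 2.58 of gamma.

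**Figure D1:**
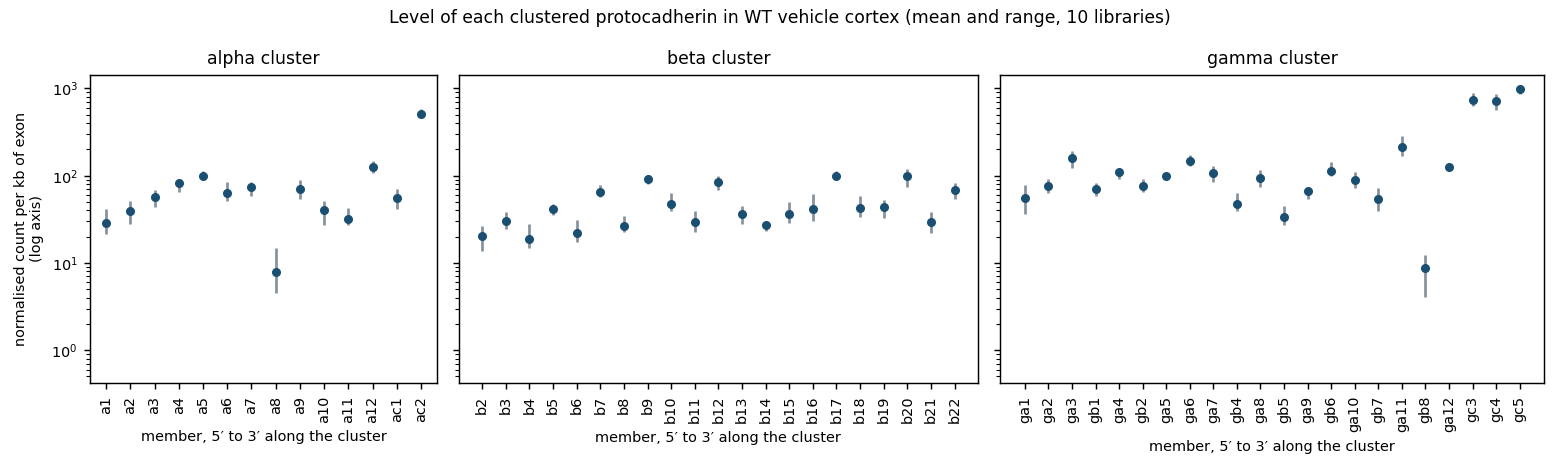
Level of each of the 57 members in WT vehicle mice, as normalised count per kilobase of exon on a log axis; points are the mean of 10 libraries and bars the range from the lowest to the highest. Pcdhgc5 (998), Pcdhgc3 (736), Pcdhgc4 (713) and Pcdhac2 (505) stand above the other members, and Pcdha8 (7.79) is lowest.

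Libraries labelled HT were lower than those labelled WT for a number of clustered protocadherins, most in beta and gamma when the 3 treatments were averaged. For gamma this differed by treatment. The median log2 differences of the A, B and C subtypes were -0.23, -0.33 and -0.27 under fluoxetine. They were -0.06, 0.04 and 0.02 under vehicle and 0.06, 0.13 and -0.03 under lithium. Without the 5 HT fluoxetine females, Pcdhga2 was the only gamma member called over all treatments, as given below. Averaged over the 3 treatments, 2 alpha members rose and 3 fell, 9 beta members fell and 5 gamma members fell (adjusted p below 0.05 in limma, Benjamini-Hochberg over 17891 genes). Of all genes tested, 14.7% were called in this comparison, 5.15% rising and 9.59% falling. The median log2 difference was 0.01 for alpha, -0.10 for beta and -0.08 for gamma, against 0.00 over all genes. Below 0 were 7 of 14 alpha, 18 of 21 beta and 17 of 22 gamma members, against 48.5% of all genes.

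The alpha cluster moved in both directions. Pcdha12, an alternate alpha gene (37020149 to 37187657), showed the smallest p of all members. Its count ranged from 573 to 797 (median 669) in WT and from 446 to 578 (median 544) in HT vehicle libraries. Under fluoxetine it ranged from 576 to 730 (median 649) in WT and from 362 to 535 (median 440) in HT. Under lithium the ranges were 476 to 660 (median 558) in WT and 289 to 530 (median 456) in HT. The HT values were the lower under each treatment: the groups touched at their edges under vehicle, did not overlap under fluoxetine and overlapped under lithium. Complete separation with HT lower held for 0.47% of all genes under fluoxetine. Over all treatments Pcdha12 fell by 0.43 ± 0.05 on the scale of log2(count + 1) (SE, limma adjusted p = 2.98e-09), and 29 of 29 HT libraries lay below the mean of the WT group of their treatment and sex. Within treatments its difference was -0.35 under vehicle (adjusted p = 0.0589), -0.56 under fluoxetine (2.75e-07) and -0.39 under lithium (0.00741). Fitted on the lithium groups alone, the last was not called (adjusted p = 0.189). Pcdha12 made up 17.0% ± 1.61 (SD, n = 10) of the counts of the alternate alpha genes in WT and 13.6% ± 0.797 (n = 9) in HT vehicle libraries.

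Pcdha10 and Pcdha8 were the other alpha genes that fell. Pcdha10 ranged from 145 to 273 (median 212) in WT and from 97.3 to 213 (median 187) in HT vehicle libraries, which overlapped. Over all treatments it fell by 0.38 ± 0.08 (SE, limma adjusted p = 0.000461; 26 of 29 HT libraries below their WT mean). Pcdha10 and Pcdha12 were the only members with an unadjusted p below 0.05 and the same sign under all 3 treatments. The share of all genes that met this is not given here, so whether the members exceeded it is not known. For Pcdha10 the differences were -0.32, -0.48 and -0.36 under vehicle, fluoxetine and lithium. Pcdha8, the lowest member, had a count of 23.9 to 78.3 (median 36.5) in WT and 9.46 to 51.3 (median 34.3) in HT vehicle libraries. It fell by 0.69 ± 0.17 (adjusted p = 0.00362; 27 of 29), with broad overlap of the groups.

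Pcdha2 and Pcdha9 rose. Pcdha2 had a count of 150 to 277 (median 200) in WT and 200 to 405 (median 247) in HT vehicle libraries. Its log2 difference over all treatments was 0.25 ± 0.06 (SE, limma adjusted p = 0.00557), with 27 of 29 HT libraries above their WT mean, though the groups overlapped under each treatment. Pcdha9 had a count of 285 to 482 (median 367) in WT and 369 to 499 (median 459) in HT vehicle libraries, and differed by 0.17 ± 0.05 (adjusted p = 0.0267; 23 of 29). The C-type genes of the cluster were not called: Pcdhac2 differed by -0.06 (adjusted p = 0.205) and Pcdhac1 by 0.03 (adjusted p = 0.756). The summed alpha counts were 7226 ± 439 (SD, n = 10) in WT and 7043 ± 692 (n = 9) in HT vehicle libraries, a difference within the spread.

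In the beta cluster every called member fell. Pcdhb5 (37320381 to 37323915, a single exon) was the one member called under vehicle, where 0.0783% of all genes fell. Its count was 127 to 166 (median 150) in WT and 79.8 to 147 (median 109) in HT vehicle libraries. The HT libraries were low, although the highest of them reached into the WT range. The difference was -0.43 ± 0.07 under vehicle (SE, limma adjusted p = 0.000157; 9 of 9 HT libraries below their WT mean). Fitted on the vehicle groups alone it was not called (adjusted p = 0.0655). It was -0.35 under fluoxetine (adjusted p = 2.71e-05) and -0.13 under lithium (adjusted p = 0.368), where the WT values were lower, at 109 to 137 (median 123), than under vehicle. Over all treatments Pcdhb5 fell by 0.31 ± 0.04 (adjusted p = 1.51e-07; 26 of 29).

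The other beta genes moved less. Pcdhb17, one of the beta genes with the highest levels per kilobase, had a count of 422 to 525 (median 459) in WT and 348 to 463 (median 423) in HT vehicle libraries, and fell by 0.13 over all treatments (adjusted p = 0.00523; 24 of 29). Pcdhb13 fell by 0.21 (adjusted p = 0.0134), Pcdhb12 by 0.12 (0.0205) and Pcdhb8 by 0.19 (0.0225). Pcdhb3, Pcdhb6, Pcdhb15 and Pcdhb22 also fell, each with an adjusted p above 0.02; they are named here after their values were seen. The summed beta counts were 4211 ± 390 (SD, n = 10) in WT and 3898 ± 238 (n = 9) in HT vehicle libraries, 7.42% lower on average and overlapping.

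In the gamma cluster Pcdhga2, an A-type gene (37668953 to 37841870), fell most clearly. Its count was 296 to 425 (median 357) in WT and 220 to 358 (median 283) in HT vehicle libraries. Under fluoxetine it was 262 to 407 (median 338) in WT and 183 to 317 (median 235) in HT, and under lithium 192 to 301 (median 262) and 173 to 279 (median 228). The HT values were lower and overlapped the WT values in each treatment, and both genotypes were lower under lithium than under vehicle. Over all treatments it fell by 0.33 ± 0.06 (SE, limma adjusted p = 4.66e-05; 27 of 29). Pcdhgb1 (-0.19, adjusted p = 0.00114), Pcdhga3 (-0.21, 0.00142), Pcdhgc5 (-0.10, 0.00551) and Pcdhgb6 (-0.15, 0.035) fell as well. Pcdhgb6 lost its call in 11 of the 59 fits that left out 1 library, with adjusted p between 0.0502 and 0.0593. Neither Pcdhgc3 (-0.06, adjusted p = 0.287) nor Pcdhgc4 (-0.09, adjusted p = 0.396) was called. The summed gamma counts were 24520 ± 952 in WT and 24462 ± 591 in HT vehicle libraries.

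**Figure D2:**
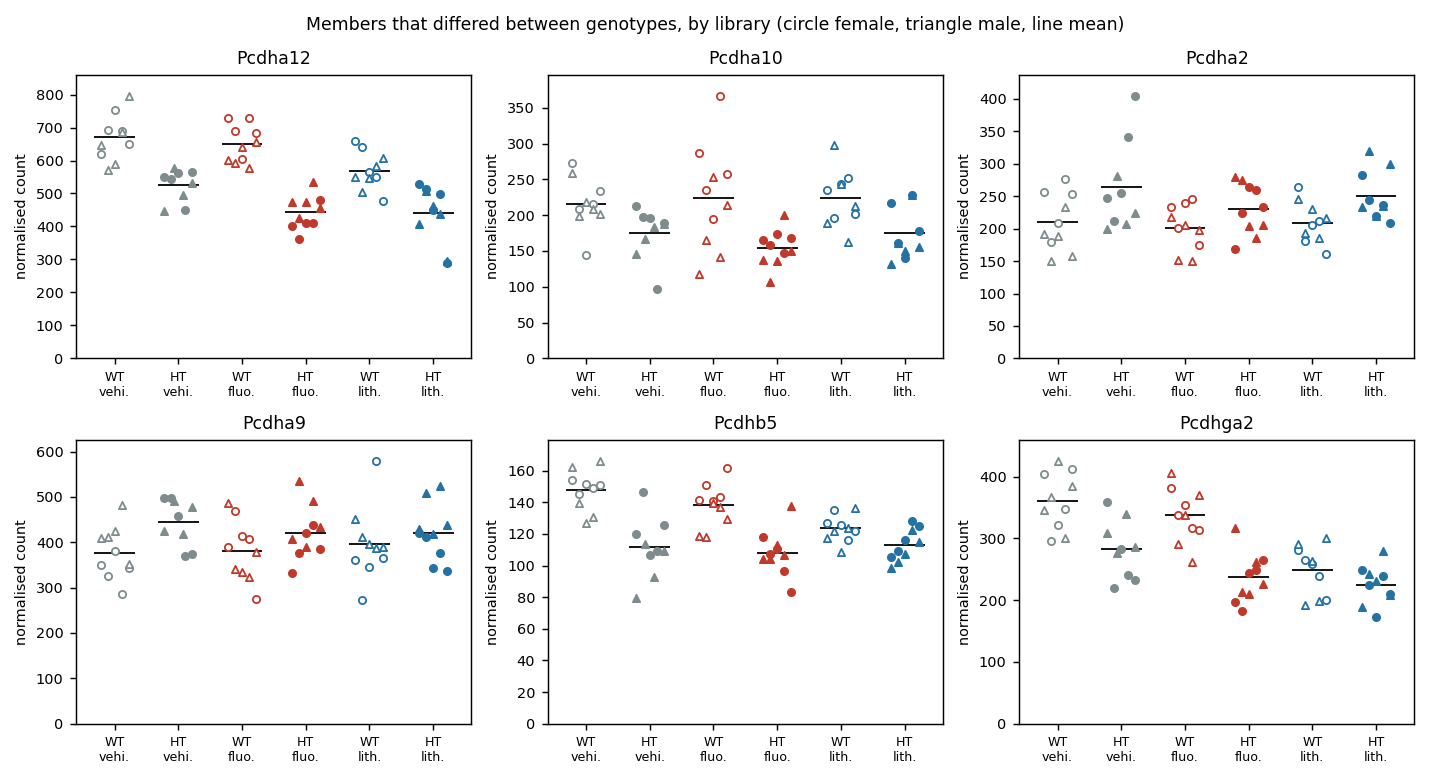
Normalised count per library of Pcdha12, Pcdha10, Pcdha2, Pcdha9, Pcdhb5 and Pcdhga2 by genotype and treatment; open symbols are WT, filled HT, circles female, triangles male, and lines group means. For Pcdha12 under fluoxetine the highest HT library (535) lies below the lowest WT library (576).

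Fewer calls were made without the HT fluoxetine females. Without those 5 libraries, 6 members were called over all treatments, against 2.96% of all genes: Pcdha2 rose by 0.28, and Pcdha8 (-0.76), Pcdha10 (-0.32), Pcdha12 (-0.37), Pcdhb5 (-0.26) and Pcdhga2 (-0.28) fell. WT fluoxetine females also left this comparison, since HT was set against WT within each treatment and sex. The other 13 members were not called in this fit of fewer libraries. Some kept a difference of about the same size: Pcdha9 (0.20, adjusted p = 0.0557), Pcdhb17 (-0.12, 0.0569) and Pcdhb8 (-0.19, 0.1). For others it was smaller, as for Pcdhgb1 (-0.12), Pcdhga3 (-0.14), Pcdhb12 (-0.04) and Pcdhgc5 (-0.04). In vehicle mice and fluoxetine males alone, none of which are in the set that stood apart, 3 members fell: Pcdhb5 (-0.35), Pcdha12 (-0.36) and Pcdhga2 (-0.38), against 0.592% of all genes falling. By sex, 19 members fell in females, where 8.43% of all genes fell. In males Pcdha8 (-0.92), Pcdha12 (-0.39), Pcdhb5 (-0.30) and Pcdhga2 (-0.27) fell and Pcdhga8 rose (0.23), where 2.04% of all genes fell and 1.45% rose. The difference between the sexes passed the test for none of the 57 members, with 13 at an unadjusted p below 0.05. Among all 17891 genes 1.49% were called for it, and 2981 had an unadjusted p below 0.05.

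The comparisons of HT with WT within vehicle, fluoxetine and lithium share no libraries, so their values can be set side by side. Members below 0 in all 3 treatments numbered 6 of 14 in alpha, 10 of 21 in beta and 6 of 22 in gamma, against 14.4% of all genes. Above 0 in all 3 were 4 alpha, 1 beta and 1 gamma member, against 14.5% of all genes. Across the 14 alpha members, Pearson's r of the log2 differences was 0.82 between vehicle and fluoxetine, 0.87 between vehicle and lithium, and 0.77 between fluoxetine and lithium. It was 0.27 to 0.45 across the 21 beta and 0.48 to 0.61 across the 22 gamma members. These are descriptions over genes that share exons and quantification, and genes are not independent replicates. Within treatments, calls were few except under fluoxetine. Under vehicle only Pcdhb5 was called; under lithium only Pcdha12 was, where 0.218% of all genes fell.

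**Figure D3:**
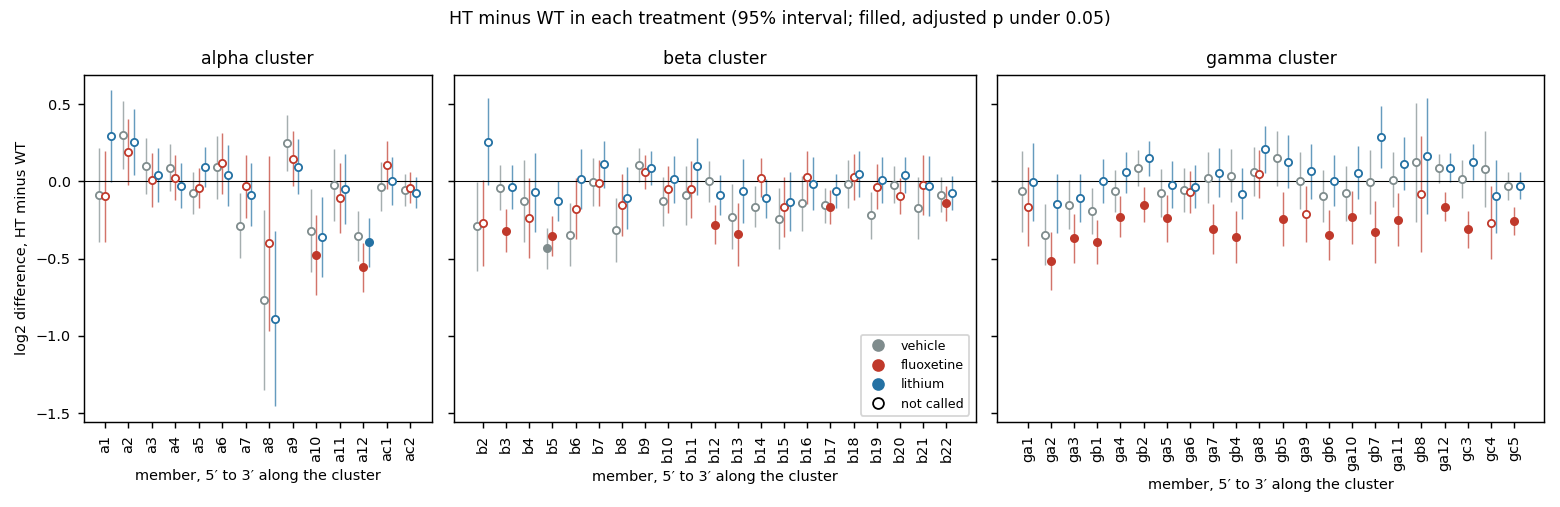
Log2 difference between HT and WT libraries for each member within vehicle, fluoxetine and lithium, with 95% intervals; filled points have a limma adjusted p below 0.05. Pcdhb5 under vehicle (-0.43) and Pcdha12 under lithium (-0.39) are the calls outside fluoxetine, where 24 members, 16 of them gamma, lie below 0 and are filled.

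Fluoxetine changed no clustered protocadherin in WT mice by the test. Of the 57 members 0 were called by limma, edgeR or DESeq2, with 3 at an unadjusted limma p below 0.05. Of all 17891 genes 1.02% were called by limma, and 1992 had an unadjusted limma p below 0.05. The median log2 difference was -0.04 in each cluster. The summed gamma counts were 24384 ± 846 (SD, n = 10) under fluoxetine, 0.556% lower than under vehicle.

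In HT mice fluoxetine went with lower gamma genes. Called lower were 16 of 22 gamma, 2 of 21 beta and 1 of 14 alpha members, where 16.3% of all genes fell, and 22 of 22 gamma members lay below 0 with a median of -0.27. Of all 17891 genes 8668 lay below 0. The smallest p was that of Pcdhgc3, whose count was 3631 to 5109 (median 3950) under vehicle and 2613 to 3868 (median 3188) under fluoxetine. It fell by 0.34 (adjusted p = 1.6e-05). Pcdhgc5 ranged from 6684 to 8536 (median 7542) under vehicle and from 5455 to 7112 (median 6310) under fluoxetine, and fell by 0.26 (adjusted p = 2.09e-05). The fluoxetine libraries of both genes were the lower ones with some overlap. Pcdhgb4 and Pcdhga11, alternate B-type and A-type genes, each fell by 0.45 (adjusted p = 5.32e-05 and 8.02e-05).

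The HT fluoxetine libraries fell into females and males. Pcdhgc3 averaged 2814 ± 136 (SD, n = 5) in HT fluoxetine females and 3665 ± 185 (n = 5) in males, and Pcdhgc5 averaged 5765 ± 274 and 6724 ± 329. The summed gamma counts were 18179 ± 436 in those females and 22585 ± 697 in those males, against 24166 ± 724 and 24603 ± 983 in WT fluoxetine females and males. The females were thus the low ones, by more than the spread of either sex. Without the 5 females, no member was called for fluoxetine against vehicle in HT mice or for HT against WT under fluoxetine (0.145% and 1.4% of all genes were). These comparisons were then between males alone, so HT vehicle females left the first and WT fluoxetine females the second. With 5 HT fluoxetine males remaining, the differences between HT and WT under fluoxetine stayed about as large for Pcdhga2 (-0.44, adjusted p = 0.0916) and Pcdhb17 (-0.18, 0.281), were smaller for Pcdha12 (-0.38, 0.0837), Pcdhgc5 (-0.11) and Pcdhgb4 (-0.08), and were near 0 for Pcdhgb2 (0.01) and Pcdhga12 (0.02). For fluoxetine against vehicle in HT mice, Pcdhga2 stood at -0.31 and Pcdhgb4 at -0.31, Pcdhgc3 at -0.15, Pcdhgc5 at -0.15 and Pcdhga12 at -0.03. In the females alone, HT against WT under fluoxetine called 2 alpha, 5 beta and 17 gamma members lower, where 20.2% of all genes fell. The females are also the libraries of high mitochondrial share and low GC-rich genes. The part of these in the result was not tested beyond removing the GC and length trend. With it removed, 11 members were called lower for fluoxetine in HT mice, where 5.54% of all genes fell; Pcdhb20 (-0.20), named after its values were seen, was called only with the trend removed. For fluoxetine against vehicle in HT mice, 3 of 7 neuron markers fell and 1 rose, 2 of 6 astrocyte markers fell and 4 of 5 endothelial markers fell. Of 6 microglial markers 2 fell and 1 rose, and 2 of 4 oligodendrocyte precursor markers fell. With no trend removed, 2923 of all 17891 genes fell and 2656 rose in this comparison. The summed counts of the first 3 lists in HT vehicle and fluoxetine libraries were 180581 to 212261 and 191558 to 202279, 117872 to 155357 and 110428 to 128531, and 5750 to 8307 and 5633 to 6537. The sums were 6791 to 9032 and 6000 to 7599 for microglia and 4948 to 7937 and 4007 to 6844 for oligodendrocyte precursors, and the part of these lists was not tested either.

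With both sexes together, HT against WT under fluoxetine called 2 alpha, 6 beta and 16 gamma members lower, where 17.8% of all genes fell. With the GC and length trend removed, the counts were 2 alpha, 7 beta and 7 gamma, where 7.08% of all genes fell. Of those named by smallest p, Pcdha12 and Pcdhb5 are given above, Pcdhgc5 fell by 0.26 (adjusted p = 1.5e-05) and Pcdhgb1 by 0.39 (2.56e-05). Pcdhgc5 was not called with the trend removed (-0.12, adjusted p = 0.0527).

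Whether the response to fluoxetine differed between genotypes was tested as an interaction. The interaction, the difference of fluoxetine from vehicle in HT minus that in WT, was negative for 22 of 22 gamma members with a median of -0.22. Of all 17891 genes 8670 were negative. Called were 7 gamma and 2 beta members, where 11.7% of all genes were called negative. Pcdhgc3 (-0.33, adjusted p = 0.00436), Pcdhga12 (-0.25, 0.00639), Pcdhgc5 (-0.23, 0.00969) and Pcdhgb4 (-0.40, 0.0152) had the smallest p. With the GC and length trend removed 1 member was called, the beta gene Pcdhb3 (-0.37, limma adjusted p = 0.0365), where 1.03% of all genes were called negative. No gamma member was then called. The adjusted p was 0.359 for Pcdhgc3, 0.409 for Pcdhga12, 0.676 for Pcdhgc5 and 0.222 for Pcdhgb4. Without the 5 HT fluoxetine females this interaction was taken over males alone, so the females of the other groups left it too. By limma 0 members and 0% of all genes were then called. The interaction of Pcdhgc3 stood at -0.13, of Pcdhga12 at -0.02 and of Pcdhgb4 at -0.14. The gamma members were then no longer all negative. Among those above 0 were Pcdhga8 (0.37), Pcdhga6 (0.19) and Pcdhga9 (0.16).

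Lithium went with lower gamma genes in both genotypes. In WT mice 19 of 22 gamma, 5 of 21 beta and 3 of 14 alpha members fell, where 26.3% of all genes fell. The median log2 difference was -0.45 for gamma, -0.08 for beta and -0.12 for alpha. In HT mice 19 gamma, 1 beta and 2 alpha members fell and 1 beta member rose, where 24.9% of all genes fell and 25.7% rose. The medians were -0.41, -0.01 and -0.09. The summed gamma counts went from 24520 ± 952 (SD, n = 10) under vehicle to 19014 ± 548 (n = 10) under lithium in WT, and from 24462 ± 591 (n = 9) to 19015 ± 659 (n = 10) in HT. These are 22.5% and 22.3% lower, and 10 of 10 lithium libraries of each genotype lay below every vehicle library of that genotype. The summed alpha counts were 7.5% and 8.27% lower and the beta counts 6.15% and 0.00928% lower, each with overlap.

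**Figure D4:**
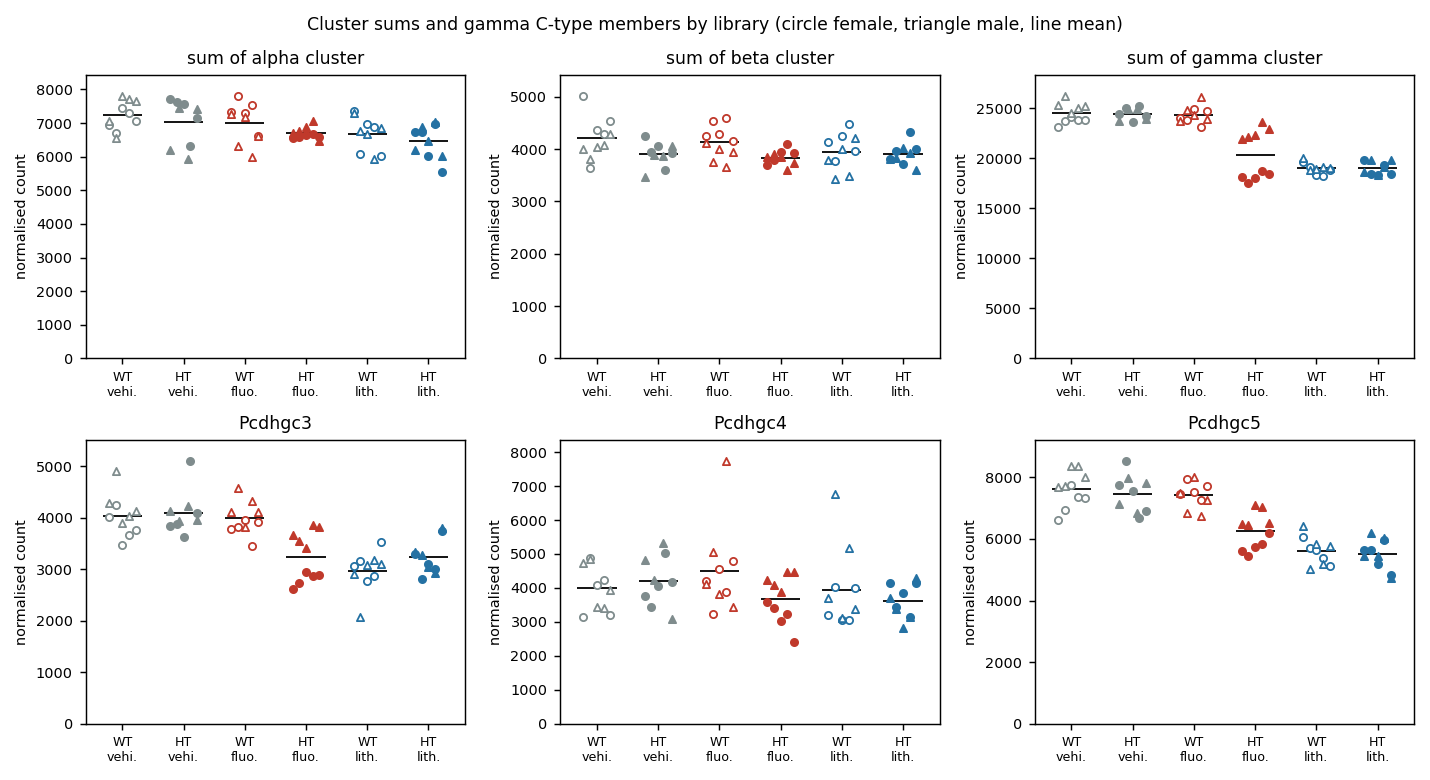
Summed normalised counts of the alpha, beta and gamma clusters and counts of Pcdhgc3, Pcdhgc4 and Pcdhgc5 per library, by genotype and treatment. The gamma sums of the lithium libraries lie below every vehicle library of their genotype, and the HT fluoxetine libraries spread from 17565 to 23652.

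The lower gamma counts covered the A, B and C subtypes. In WT mice 11 of 12 A-type genes fell (median -0.40), 6 of 7 B-type genes (median -0.56) and 2 of 3 C-type genes (median -0.44). The smallest p was that of Pcdhgb2, whose count was 314 to 450 (median 372) under vehicle and 219 to 286 (median 250) under lithium. These groups did not overlap, and Pcdhgb2 fell by 0.58 (limma adjusted p = 1.66e-12). Pcdhgc5, the most abundant member, went from 6601 to 8370 (median 7696) under vehicle to 5009 to 6411 (median 5660) under lithium, also without overlap, and fell by 0.44 (adjusted p = 8.45e-12). Pcdhgb1 fell by 0.63 (adjusted p = 1.64e-10). Pcdhgb7 had the largest fall of these, 0.82 (adjusted p = 1.89e-09), from 184 to 340 (median 246) to 83.9 to 185 (median 154), with slight overlap. The groups were fully separate for 7 members: Pcdhga5, Pcdhga11, Pcdhga12, Pcdhgb2, Pcdhgb4, Pcdhgb6 and Pcdhgc5, where 5.87% of all genes separated this way; Pcdhga5 is named after its values were seen.

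In HT mice the C-type gene Pcdhgc5 had the smallest p. Its count went from 6684 to 8536 (median 7542) under vehicle to 4745 to 6198 (median 5545) under lithium, and it fell by 0.44 (adjusted p = 3.11e-11). Pcdhgb2 fell by 0.52 (adjusted p = 1.33e-10), Pcdhga12 by 0.37 (1.02e-08) and Pcdhgb4 by 0.62 (4.14e-08). Of these, Pcdhgc5 and Pcdhga12 separated fully; in all 5 members did (also Pcdhga11, Pcdhgb1 and Pcdhgb5), where 7.8% of all genes did. The gamma genes that were not called in WT mice were Pcdhga1, the pseudogene Pcdhgb8 and Pcdhgc4. Pcdhgc4, known for interneuron survival, had a count of 3137 to 4868 (median 4020) under vehicle and 3049 to 6765 (median 3547) under lithium in WT, with nearly complete overlap (-0.04, adjusted p = 0.78). In HT it differed by -0.22 (adjusted p = 0.137).

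The alpha and beta genes called under lithium were fewer. Pcdha12 fell by 0.24 in WT and 0.28 in HT mice. Pcdhac2, the serotonin-axon C-type gene, fell by 0.13 (adjusted p = 0.0261) and 0.15 (adjusted p = 0.014). Its call was lost in WT without 1 of 3 libraries (adjusted p = 0.062 to 0.0758), in HT without HT vehicle male replicate 2 (0.0513), and in both with the GC and length trend removed. In the beta cluster of WT mice Pcdhb2 fell by 0.56, Pcdhb5 by 0.25, Pcdhb10 by 0.19, Pcdhb12 by 0.18 and Pcdhb20 by 0.17; Pcdhb2, Pcdhb10 and Pcdhb20 are named after their values were seen. In HT mice Pcdhb12 fell by 0.26, and Pcdhb6, the one member that rose, differed by 0.28 (adjusted p = 0.0229).

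All lithium libraries belong to the set with a high mitochondrial share and low GC-rich genes, so lithium and this property cannot be told apart by leaving libraries out. With the GC and length trend removed, 19 gamma members fell in WT mice with a median of -0.30, along with 11 beta and 2 alpha members, where 17.1% of all genes fell. In HT mice 14 gamma, 3 beta and 1 alpha member fell, where 16.6% of all genes fell, and the gamma median was -0.24. Removing the trend moved Pcdhgc5 from -0.44 to -0.21 in both genotypes, and Pcdhgc3 in HT mice from -0.34 to -0.11 (adjusted p = 0.14). The subtype medians in WT mice became -0.29 for A, -0.41 for B and -0.21 for C. Markers of several cell types moved with lithium as well. In WT mice 4 of 7 neuron markers fell and 1 rose, 3 of 6 astrocyte markers fell, and 4 of 5 endothelial markers fell and 1 rose; in HT mice the counts were 4 and 1, 3 and 0, and 4 and 0. In each genotype 2 of 6 microglial markers fell and 2 rose, and 2 of 4 oligodendrocyte precursor markers fell. With no trend removed, 4703 of all 17891 genes fell and 4764 rose in WT mice, and 4451 fell and 4603 rose in HT mice. The marker sums follow. Their summed counts in WT vehicle and lithium libraries were 185591 to 220163 and 178840 to 217408 for neurons, 115433 to 158486 and 105302 to 137745 for astrocytes, and 5771 to 8133 and 4977 to 6905 for endothelium, 6142 to 8620 and 5696 to 7673 for microglia, and 5315 to 7401 and 4072 to 5868 for oligodendrocyte precursors, and no gene of these lists stood at 0 in any library. Mature oligodendrocyte sums under vehicle and lithium were 39478 to 221714 and 41236 to 175586 in WT mice. In HT mice they were 47922 to 200334 and 92728 to 154433. For immature neurons and the olfactory stream the sums were 3434 to 11167 and 3533 to 5843 in WT mice. In HT mice these ran from 3648 to 7856 under vehicle and from 4730 to 14167 under lithium. The groups overlapped for each sum, and the part of these in the result was not tested.

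**Figure D5:**
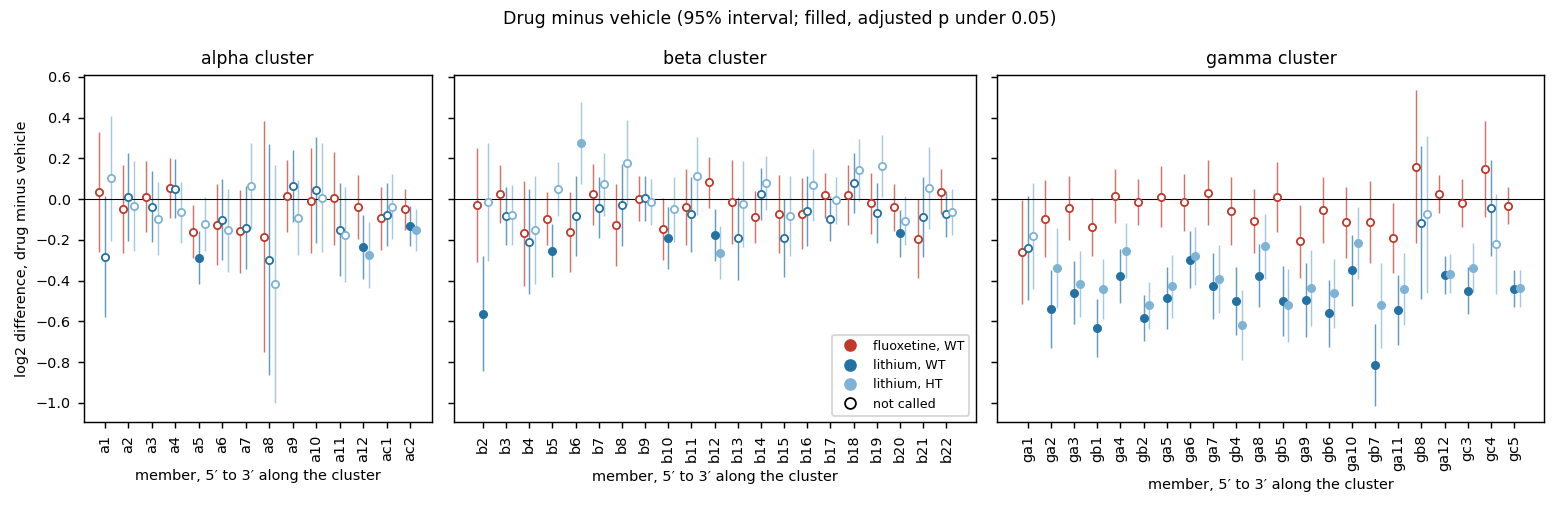
Log2 difference between drug and vehicle for each member, for fluoxetine in WT and lithium in WT and HT mice, with 95% intervals; filled points have a limma adjusted p below 0.05. Under lithium 19 gamma members are filled and below 0 in each genotype, and under fluoxetine in WT mice none is filled.

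The response to lithium did not pass the test for a difference between genotypes in any member: 0 were called by limma, edgeR or DESeq2, and 4, all beta, had an unadjusted limma p below 0.05. Among all genes limma called 0% for this interaction, with 1058 genes at an unadjusted p below 0.05.

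Females and males differed in a few members. Averaged over genotype and treatment, 6 beta members were higher in females, 1 alpha member was higher and 1 lower, and 2 gamma members were lower, where 3.55% of all genes were higher and 5.2% lower. Of the beta genes 20 of 21 lay above 0, with a median of 0.12. Pcdha8 had the smallest p: its count averaged 53.3 ± 19.3 (SD, n = 5) in WT vehicle females and 29.9 ± 7.48 in WT vehicle males, and 38.4 ± 7.93 and 17.5 ± 4.87 in HT fluoxetine females and males. The female mean was above the male mean in each of the 6 combinations of genotype and treatment. The log2 difference was 0.98 ± 0.17 (SE, limma adjusted p = 0.000327; 27 of 30 females above the male mean of their group). Pcdhb11 (0.27, adjusted p = 0.00308), Pcdhb3 (0.17, 0.00954) and Pcdhgb4 (-0.20, 0.0111) followed. With the GC and length trend removed, only Pcdha8 (0.97) and Pcdhb11 (0.23) were called, where 0.213% of all genes were higher in females. Without the 5 HT fluoxetine females 5 members were called, all higher: Pcdha8, Pcdhb3, Pcdhb10, Pcdhb11 and Pcdhb12, where 0.112% of all genes were higher. HT fluoxetine males also left this comparison.

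Genes of 6 other lists related to the clusters are given beside the 5.15% of all genes that rose and 9.59% that fell between HT and WT over all treatments. Over all treatments, libraries labelled HT had 3 of 13 non-clustered protocadherins lower and none higher: Pcdh1 (-0.10, adjusted p = 0.000932), Pcdh7 (-0.14, 0.00409) and Pcdh10 (-0.08, 0.0154), adhesion molecules encoded outside the clusters. None of 13 genes of CTCF, cohesin and its loaders was called in limma, with 4 at an unadjusted p below 0.05. Of all 17891 genes 5173 had such an unadjusted p. Of 19 genes for silencing at the clusters 2 fell, Ehmt2 (-0.08) and Atf7ip (-0.07), which act in histone H3 lysine methylation. Among 16 cytoplasmic partners, which include the actin-regulating WAVE complex, 2 rose and 4 fell; Wasf1 (-0.09), Brk1 (0.08) and Cyfip2 (-0.08), all WAVE subunits, had the smallest p. Of 9 genes of enzymes that cleave protocadherins 2 fell, Ncstn (-0.06) and Psen2 (-0.10), both of gamma-secretase. Of 24 genes beside the clusters on the chromosome 1 rose and 5 fell. This list shares Pcdh1 and Pcdh12 with the non-clustered protocadherins, so Pcdh1 is counted in each. Without the 5 HT fluoxetine females 1 non-clustered protocadherin fell, 1 partner rose and no gene of the other 4 lists was called in limma. Of all genes 2.96% were then called. The unadjusted p was below 0.05 for 5 non-clustered protocadherins and 5 partners. In the other lists it was so for 1 CTCF and cohesin gene, 3 silencing genes, 0 cleaving enzymes and 1 neighbouring gene. Among all 17891 genes 3123 had such an unadjusted p. Under vehicle alone none of these 6 lists held a called gene in limma.

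Under lithium 9 of 13 non-clustered protocadherins fell and 1 rose in WT mice (median -0.27), where 26.3% of all genes fell and 26.6% rose. In HT mice 8 fell and 2 rose (median -0.30), where 24.9% fell and 25.7% rose. Pcdh1 fell by 0.42 in WT and 0.41 in HT mice. Of the 24 genes beside the clusters 7 rose and 9 fell in WT mice (median 0.03) and 7 and 9 in HT mice. Of the 13 CTCF and cohesin genes 4 rose and 2 fell in WT mice, and 5 and 1 in HT mice. With the GC and length trend removed, 7 non-clustered protocadherins fell and 1 rose in WT mice and 8 fell in HT mice. Of all 17880 genes in that setting, 3466 rose and 3059 fell in WT mice, and 2369 rose and 2961 fell in HT mice. The genes beside the clusters then had 8 rising and 3 falling in WT mice and 7 and 5 in HT mice. The CTCF and cohesin genes had 2 rising and 6 falling in WT mice and 2 and 4 in HT mice, so their balance turned with this setting. No difference between these lists and the clusters was tested.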

How the data were processed

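The data are bulk poly(A) RNA-seq libraries prepared with a TruSeq Stranded mRNA kit per the labels' protocols. The authors deposited 1 table of values per gene that are read counts divided by a size factor per library (unit: signal). Per the submitters' processing notes, Salmon 0.11.2, R 3.6.0 and DESeq2 1.19.11 were used with GRCm38; the annotation, the gene filter and whether counting used strand are not given in the sources used here. Size factors recovered from the steps of low values (0.827 to 1.13) gave whole reads for 100% of values within 0.01 read, 25.0 to 32.9 M per library.

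Gene symbols came from GENCODE M21 for 18077 rows; 1 member symbol (Pcdha10) was updated by its Entrez number. Values were log2(value + 1); rows with a value of 10 or more in 4 or more libraries were kept. limma 3.58.1 (R 4.3.3) with an intensity trend fitted 12 group means; contrasts average over sex, and over treatment where stated. Calls are a Benjamini-Hochberg adjusted p below 0.05 over 17891 genes, and log2 differences understate changes of low genes. Alternatives were the added constant, the filter, median centring, removal of a GC and length trend, no intensity trend, only the groups compared, a replicate block, edgeR 4.0.16 and DESeq2 1.42.0 on recovered reads, the data without the 5 HT fluoxetine females, and leaving out each library. Leaving out the 5 HT fluoxetine females also took their counterparts out of some comparisons. HT against WT under fluoxetine, fluoxetine in HT mice and the genotype by fluoxetine interaction then used males alone. The comparison over all treatments lost WT fluoxetine females, and that of the sexes lost HT fluoxetine males. Fits by sex, and of vehicle mice with fluoxetine males, were chosen after seeing the data. The fit was tested on simulated data.

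Members and lists were chosen with earlier results of these data known. Named members are, among those called, up to 5 per cluster of smallest p for HT against WT over all treatments and up to 4 in each other comparison, the 2 highest per kilobase in each cluster, the C-types, and up to 3 genes of each other list. Cluster sums are given without a test.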

Additional observations from a re-analysis of the deposited data

Results flagged for a closer look

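Over 12 members and the 3 cluster sums, 90 groups of genotype and treatment were looked at, and 3 had a library far from the others by Dixon's criterion; chance gives about 1 in 20. Pcdhgc3 was lowest in WT lithium male replicate 2, at a normalised count of 2081 (group median 3073). It was highest in HT vehicle female replicate 4, at 5109 (group median 3950). Pcdhgc4 was highest in WT fluoxetine male replicate 4, at 7744 (group median 4169).

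The fluoxetine response differed between the genotypes by the limma interaction test in 9 members, each lower in HT. The log2 interaction was -0.33 for Pcdhgc3, -0.25 for Pcdhga12, -0.23 for Pcdhgc5, -0.40 for Pcdhgb4, -0.39 for Pcdhgb5, -0.28 for Pcdhb12, -0.24 for Pcdhgb2, -0.33 for Pcdhga7 and -0.28 for Pcdhb3. Without the 5 HT fluoxetine females, when males alone were compared, none of the 9 was called. With the GC and length trend removed, only Pcdhb3 of the 9 was called.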

How the results depend on the processing

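None of 51 calls of named members changed sign under the 12 alternatives besides leaving out single libraries, but many were lost. A difference near 0 could still keep its sign: the Pcdhgc5 genotype by fluoxetine interaction shrank to -0.0025. The sign of other differences was not followed in this way. Leaving out the 5 HT fluoxetine females cost 26 of the 51 calls, and taking out the GC and length trend cost 14. Fitting only the compared groups cost 3, and median centring cost 1. Without the 5 HT fluoxetine females the members called were 6 for HT against WT over all treatments, 0 under fluoxetine, 0 for fluoxetine in HT mice, 0 for the genotype by fluoxetine interaction and 5 for sex. These counts of 0 came from comparisons of males alone. With the GC and length trend removed they were 11 for fluoxetine in HT mice, 1 for that interaction and 2 for sex. Fitted on the compared groups only, HT against WT called 0 under vehicle and 0 under lithium; DESeq2 called 2 under vehicle. The cause was not tested. Leaving out each library in turn, the counts were 16 to 21 over all treatments, 1 to 2 under vehicle, 20 to 25 under fluoxetine, 1 under lithium, 17 to 20 for fluoxetine and 20 to 24 for lithium in HT mice, 25 to 28 for lithium in WT mice, 6 to 9 for the interaction and 8 to 15 for sex. The count under vehicle was 2 without WT vehicle male replicate 2, HT lithium female replicate 5 or HT lithium male replicate 5. Replicate numbers did not pair the libraries: same-numbered libraries of different groups had a mean residual correlation of 0.0104, and with the replicate block 19 members were called over all treatments and no named call changed. Sums of assigned counts and single alpha and gamma genes depend on how shared exons were divided, and members of low count such as Pcdha8 have wide errors.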

Other observations

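Within groups the median pair of members of a cluster had a modest positive correlation. The same median over pairs of all genes is not given here, so whether the members exceeded it is not known. After removing group means, the median Pearson correlation between pairs of members over the 59 libraries was 0.21 in alpha (91 pairs), 0.24 in beta (210 pairs) and 0.24 in gamma (231 pairs); the pairs share libraries and, in alpha and gamma, exons. Between clusters the medians were 0.14 for alpha with beta, 0.18 for alpha with gamma and 0.18 for beta with gamma, with a highest value of 0.78 for a pair of an alpha and a gamma member. The closest pairs within a cluster were Pcdhb16 with Pcdhb19 (0.76) and Pcdhga12 with Pcdhgc5 (0.73). The spread between libraries of a group was larger at the median member than at the median gene. The median residual SD was 0.22 log2 in alpha, 0.17 in beta and 0.19 in gamma, against 0.15 over all genes. Genes were not matched for level. Some abundant members lay lower, such as Pcdhgc5 (0.10), Pcdhga12 (0.11) and Pcdhac2 (0.12), and the low-count Pcdha8 was highest (0.67).

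Pcdhgc4, known for the survival of interneurons, went the other way. Its residuals correlated negatively with 54 of 56 other members (median -0.40), with all 14 alpha members and, lowest, with Pcdhb19 (-0.67), Pcdhga9 (-0.62) and Pcdhga11 (-0.61). Above 0 were Pcdhb5 (0.03) and Pcdhgc3 (0.19), while the other C-type genes were below 0: Pcdhgc5 (-0.60), Pcdhac2 (-0.52) and Pcdhac1 (-0.22). Pcdhgc4 took 12.9 to 35.9% of the summed gamma counts across libraries. These correlations are descriptions over the same 59 libraries, chosen after their values were seen. The share of all genes with a negative correlation to Pcdhgc4 is not given here, so whether the members exceeded it is not known. No GC or length trend was removed for them, and the outlying Pcdhgc4 library, WT fluoxetine male replicate 4 (7744), was included.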
